A study of Mus musculus with 11 samples.

Results

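Expression of 10 genes that mark intestinal tuft cells was compared between germ-free and humanized mouse colon. The members were set by a list of gene symbols, chosen with earlier results of these data known, and are the rows of the count table named Dclk1, Trpm5, Pou2f3, Avil, Alox5, Alox5ap, Ptgs1, Hpgds, Sucnr1 and Gfi1b, which are 10 of its 43346 genes. RNA came from the colon of male Swiss Webster mice aged 8 to 10 weeks, all raised germ-free. The germ-free group held 5 mice that stayed free of microbes, and the humanized group held 6 mice that received 300 μL of stool suspension from 1 human donor at 4 to 5 weeks of age and were then left for 4 to 5 weeks. Because a single donor was used, the humanized group models 1 human microbiota, and because bulk colonic tissue was sequenced, fewer tuft cells and less RNA per tuft cell cannot be told apart. The labels number the mice within each group, and between 39125290 and 64148538 reads per mouse were counted on genes.

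Tuft cells are rare chemosensory cells of the intestinal epithelium. They sense luminal metabolites such as succinate through G protein-coupled receptors, and the signal runs through phospholipase C and calcium to the cation channel TRPM5. In the small intestine they release interleukin-25, cysteinyl leukotrienes and prostaglandin D2, which act on group 2 innate lymphoid cells, and interleukin-13 from those cells in turn expands tuft and goblet cells. Several enzymes of eicosanoid synthesis that mark tuft cells within the epithelium are also made by macrophages, mast cells, platelets or stromal cells, so whole-tissue RNA holds transcripts from all of these.

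The tuft cell genes did not move in 1 direction. Of the 9 members that passed the low-expression filter, Trpm5, Pou2f3 and Avil had higher expression in humanized mice and Hpgds had lower expression at FDR below 0.01 in edgeR's exact test, where 9.20% of all 19863 tested genes were higher and 10.1% were lower (19.3% in either direction). The other 5 tested members, Dclk1, Alox5, Alox5ap, Ptgs1 and Sucnr1, did not pass, and Gfi1b had too few reads to be tested. The median log2-fold change (LFC, humanized over germ-free) of the 9 members was 0.01, as was the median over all tested genes. Counts scaled to TMM-normalized library size (the usual CPM scale) did not overlap between the groups for 5 of the 9 members, 3 higher and 2 lower in humanized mice, against 18.4% of all tested genes (8.67% higher and 9.73% lower).

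**Figure D1:**
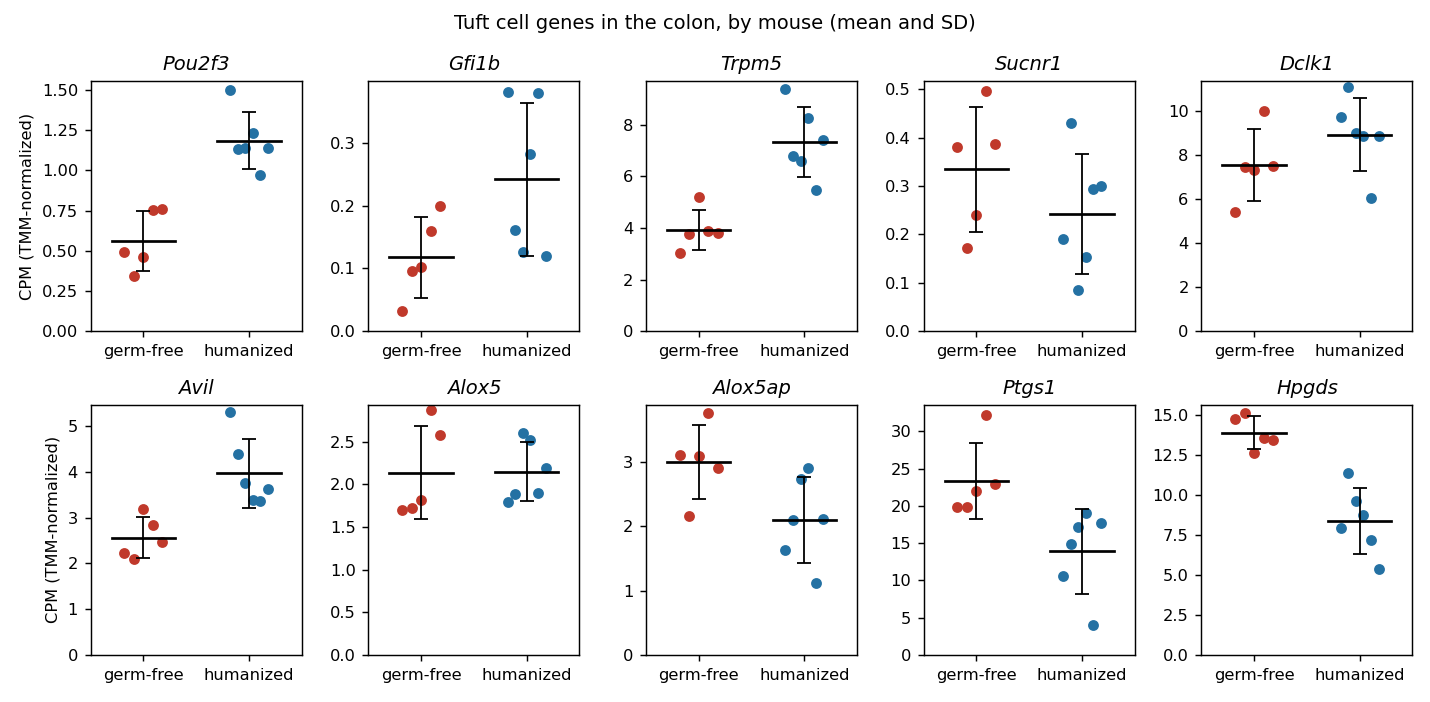
CPM of the 10 tuft cell genes in each of 5 germ-free (red) and 6 humanized (blue) mice, with the mean (line) and SD (bar) of each group and axes that start at 0. Pou2f3, Trpm5 and Avil are higher in every humanized mouse than in any germ-free mouse, Hpgds and Ptgs1 are lower in every humanized mouse, and the groups overlap for the other 5 genes.

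Measured per length of transcript, 3 of the 4 members of eicosanoid synthesis were the most abundant in germ-free colon. CPM per kilobase of transcript (RPKM) was 6.02 ± 1.31 (SD, n = 5) for Ptgs1, 3.87 ± 0.286 for Hpgds and 3.53 ± 0.674 for Alox5ap. The next 4 genes lay close together, with 0.754 ± 0.130 RPKM for Avil, 0.614 ± 0.121 for Trpm5, 0.580 ± 0.125 for Dclk1 and 0.520 ± 0.133 for Alox5, of which Trpm5, Dclk1 and Alox5 differed from their neighbours by less than the SDs, whereas Avil was above Trpm5 by slightly more than either SD. Pou2f3 (0.207 ± 0.0684 RPKM), Sucnr1 (0.204 ± 0.0786) and Gfi1b (0.0645 ± 0.0353) were the least abundant. In humanized mice Ptgs1 was still the most abundant, at 3.57 ± 1.46 RPKM (SD, n = 6), followed by Alox5ap at 2.47 ± 0.787 and Hpgds at 2.33 ± 0.576, and these 3 differed by less than the SD of Ptgs1. Avil at 1.17 ± 0.221 RPKM and Trpm5 at 1.14 ± 0.213 were above Dclk1 at 0.687 ± 0.127 there.

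Pou2f3 encodes the POU-domain transcription factor that tuft cells require to form. It lies on chromosome 9 from 43123939 to 43210369 on mm10 and was counted with few reads, 18 to 53 per germ-free mouse and 42 to 57 per humanized mouse. Its expression in germ-free mice 1 to 5 was 0.492, 0.344, 0.462, 0.753 and 0.758 CPM, and in humanized mice it ranged from 0.968 to 1.498 CPM with a median of 1.14. Every humanized mouse was above every germ-free mouse, and the group means differed 2.11-fold (LFC 1.06, standard error 0.23, FDR = 2.12e-04; two-sided exact permutation test, p = 0.00216, which is the lowest value available with groups of 5 and 6). Gfi1b, on chromosome 2 from 28609450 to 28621982, encodes a zinc-finger repressor expressed by tuft cells as well as by erythroid cells and megakaryocytes. It had 2 to 14 reads per germ-free mouse and 6 to 18 per humanized mouse, and its mean CPM was 0.118 ± 0.0647 (SD, n = 5) and 0.242 ± 0.122 (SD, n = 6). The groups overlapped, and with no filter on low counts its LFC was 0.99 (FDR = 0.182; exact permutation test, p = 0.0736).

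POU factors of this class bind the octamer ATGCAAAT, and the bases before the transcription starts of the members were searched for it because the gene of such a factor is among them. RefSeq start windows on GRCm38.p6, from 250 bases before to 50 bases after a start, were matched for 8 of the 10 members (9 windows, of which Dclk1 has 2). The octamer or its reverse complement ATTTGCAT lay in the windows of Sucnr1 and Hpgds, and in 1.74% of all 32851 windows. Its first 7 bases, ATGCAAA or TTTGCAT on the other strand, which every octamer also contains, lay in the window of Avil as well, and in 4.63% of all windows. Of the 27 other tuft genes with a window (32 windows in all), 2 held the octamer, Kctd12 and Rgs21, and 3 held the 7 bases. The matches describe these letters only, and no binding was measured. Sequences upstream of the start are shown for the 3 members with a match, with the matched bases in capitals, and for Trpm5, the member with the lowest FDR, in which neither string was found. They run 5′ to 3′ on the strand of the gene. The Hpgds stretch is limited to 100 bases, because the GENCODE M21 gene begins upstream of the RefSeq start.
Sucnr1, chr3:60081619-60081868, plus strand: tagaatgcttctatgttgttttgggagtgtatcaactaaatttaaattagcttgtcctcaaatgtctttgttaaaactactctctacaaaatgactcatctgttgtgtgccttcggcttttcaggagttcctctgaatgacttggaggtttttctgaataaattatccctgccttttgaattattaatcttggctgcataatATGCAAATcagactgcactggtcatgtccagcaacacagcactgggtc
Hpgds, chr6:65144881-65144980, minus strand: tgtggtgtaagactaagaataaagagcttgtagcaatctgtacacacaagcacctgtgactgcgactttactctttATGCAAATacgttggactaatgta
Avil, chr10:127000459-127000708, plus strand: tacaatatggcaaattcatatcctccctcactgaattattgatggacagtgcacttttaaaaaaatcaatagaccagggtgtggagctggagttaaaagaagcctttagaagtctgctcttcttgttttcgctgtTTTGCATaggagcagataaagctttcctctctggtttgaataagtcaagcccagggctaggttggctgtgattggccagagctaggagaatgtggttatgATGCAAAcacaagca
Trpm5, chr7:143094643-143094892, minus strand: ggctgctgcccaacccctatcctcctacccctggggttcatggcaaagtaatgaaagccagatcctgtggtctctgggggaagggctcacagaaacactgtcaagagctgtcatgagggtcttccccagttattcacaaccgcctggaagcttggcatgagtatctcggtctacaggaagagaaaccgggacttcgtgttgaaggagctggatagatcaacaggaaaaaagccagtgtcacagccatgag
The octamer of Sucnr1 lies 48 to 41 bases before the start and that of Hpgds 174 to 167 bases before the RefSeq start, which places it among the first transcribed bases of the GENCODE gene. Avil holds TTTGCAT 115 to 109 bases and ATGCAAA 15 to 9 bases before the start.

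Trpm5, the calcium-activated cation channel through which tuft cells depolarize, lies on chromosome 7 from 143069153 to 143094642. It had 3.05, 3.75, 5.18, 3.89 and 3.79 CPM in germ-free mice 1 to 5 and from 5.47 to 9.37 CPM in humanized mice, with a median of 7.09. The lowest humanized mouse, mouse 5, was just above the highest germ-free mouse, mouse 3. The means differed 1.86-fold (LFC 0.89, standard error 0.16, FDR = 6.16e-05; exact permutation test, p = 0.00216). Trpm5 shares 220 bases of exon with Tssc4 on the opposite strand, and without strand the reads of these bases cannot be told apart, and the part of these reads in the value of Trpm5 was not tested. Tssc4 had an LFC of 0.03 (FDR = 0.909). Sucnr1, the succinate receptor on chromosome 3 from 60081869 to 60087566, whose upstream bases hold the octamer shown above, had only 9 to 31 reads per germ-free mouse and 4 to 16 per humanized mouse. It averaged 0.335 ± 0.129 CPM (SD, n = 5) without microbes and 0.242 ± 0.124 CPM (SD, n = 6) after humanization, and the values of the groups were interleaved (LFC −0.48, standard error 0.40, FDR = 0.426; exact permutation test, p = 0.249).

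Avil encodes advillin, an actin-bundling protein of the apical tuft that is also made by sensory neurons, and lies on chromosome 10 from 127000709 to 127020994. Germ-free mice 1 to 5 had 2.24, 2.102, 3.18, 2.84 and 2.46 CPM, and humanized mice had from 3.37 to 5.31 CPM with a median of 3.69. The groups did not overlap, although the lowest humanized and highest germ-free values were close (LFC 0.63, standard error 0.16, FDR = 0.00803; exact permutation test, p = 0.00216). This call was near the threshold. It ended when any 1 of 7 mice was left out (germ-free mouse 1, 2, 4 or 5, or humanized mouse 1, 2 or 6), with FDR between 0.0111 and 0.0368, and with upper-quartile factors (FDR = 0.0142), total counts (FDR = 0.0635) or no filter (FDR = 0.0181). It also ended with edgeR's quasi-likelihood test (FDR = 0.0133), which called 2 members higher and 1 lower against 7.05% and 6.53% of all tested genes. Avil shares 165 bases of exon with Tsfm on the opposite strand, whose own LFC was 0.29 (FDR = 0.0283).

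Dclk1, a microtubule-associated kinase much used as a tuft cell marker and also expressed by neurons and stromal cells, lies on chromosome 3 from 55242526 to 55539064. It had 5.42, 7.45, 7.32, 9.99 and 7.48 CPM in germ-free mice 1 to 5 and from 6.04 to 11.1 CPM in humanized mice, with a median of 8.93. The groups overlapped over most of their range (LFC 0.24, standard error 0.17, FDR = 0.381; exact permutation test, p = 0.223). The table holds 1 count for the whole gene, so transcripts from its separate starts were not resolved.

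**Figure D2:**
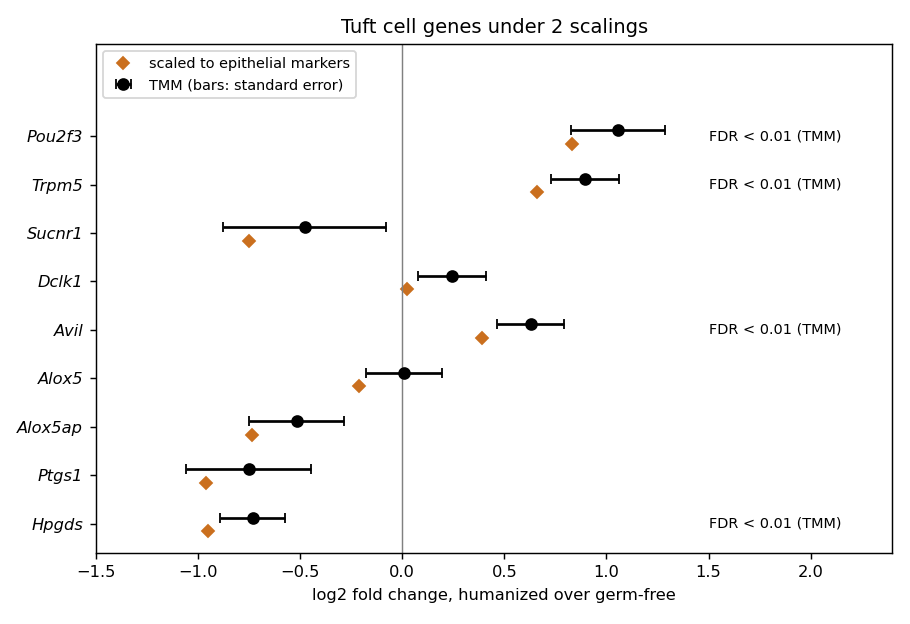
LFC of the 9 tested tuft cell genes, humanized over germ-free, after TMM normalization (black, bars are standard errors) and after scaling each library to 11 epithelial marker genes (orange). Pou2f3, Trpm5 and Avil stay above 0 and Hpgds, Ptgs1, Alox5ap and Sucnr1 below 0 under both, and Alox5 moves from 0.01 to −0.21.

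Of the 4 eicosanoid genes, 1 was called lower in humanized mice and 3 did not pass, where 10.1% of all tested genes were lower. Hpgds, the hematopoietic prostaglandin D synthase that makes prostaglandin D2, lies on chromosome 6 from 65117293 to 65144908. It had 14.7, 15.1, 12.6, 13.6 and 13.4 CPM in germ-free mice 1 to 5 and from 5.37 to 11.4 CPM in humanized mice, with a median of 8.34. Every humanized mouse was below every germ-free mouse (LFC −0.73, standard error 0.16, FDR = 3.81e-04; exact permutation test, p = 0.00433). The coefficient of variation of its CPM was 7.38% without microbes and 24.7% after humanization.

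Ptgs1 encodes cyclooxygenase-1, which forms prostaglandin H2, the substrate of Hpgds, and lies on chromosome 2 from 36230426 to 36252272. Germ-free mice 1 to 5 had 19.9, 19.9, 22.0, 32.2 and 23.0 CPM, and humanized mice had from 3.98 to 19.0 CPM with a median of 16.02. The groups did not overlap, but the spread within humanized mice was wide and the gene did not pass (LFC −0.75, standard error 0.31, FDR = 0.0548; exact permutation test, p = 0.0130). Humanized mouse 5 was far below the others, and without it the LFC was −0.56 with an FDR of 0.00857.

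Alox5ap and Alox5 encode the activating protein and the lipoxygenase that together open leukotriene synthesis. Alox5ap, on chromosome 5 from 149265058 to 149288045, had 3.11, 2.16, 3.10, 3.76 and 2.90 CPM in germ-free mice 1 to 5 and from 1.12 to 2.90 CPM in humanized mice, with a median of 2.11. All 6 humanized mice were below the germ-free mean, but the groups overlapped (LFC −0.52, standard error 0.23, FDR = 0.123; exact permutation test, p = 0.0476). Alox5, on chromosome 6 from 116410077 to 116461178, averaged 2.13 ± 0.547 CPM (SD, n = 5) without microbes and 2.15 ± 0.345 CPM (SD, n = 6) after humanization (LFC 0.01, standard error 0.19, FDR = 0.996; exact permutation test, p = 0.866). The sign of its LFC depended on the normalization, as it was −0.02 with upper-quartile factors and −0.17 with total counts.

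Scaling changed the calls of the members with higher expression. The 11 epithelial marker genes had a median LFC of 0.21 and all had an LFC above 0, and their summed RPKM ran from 4432 to 6035 without microbes and from 5082 to 7092 after humanization. With TMM, 2 of these 11 were themselves called higher and none was lower, against 9.20% and 10.1% of all tested genes. When libraries were scaled to these genes in place of TMM, the median LFC of all tested genes moved to −0.23, 2.55% of them were higher and 14.0% were lower. On this scale the LFC was 0.66 for Trpm5 (FDR = 0.0159), 0.83 for Pou2f3 (FDR = 0.0179) and 0.39 for Avil (FDR = 0.218), so none of the 3 passed, and Hpgds remained called (LFC −0.95, FDR = 0.00110). The median LFC of the 9 members was −0.21, near that of all genes.

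A list of 34 other tuft genes gave a wider view of the cell type. Of its 30 tested genes, 10 were called higher and 2 were called lower after humanization, against 9.20% and 10.1% of all tested genes, and its median LFC was 0.32 against 0.01. The groups did not overlap for 13 of the 30, against 18.4% of all tested genes, and 11 of these were higher and 2 were lower (8.67% and 9.73% of all tested genes). Gnat3, the α subunit of gustducin and the taste G protein of tuft cells, changed most among them. It averaged 0.204 ± 0.0478 RPKM without microbes and 0.938 ± 0.231 RPKM after humanization, and its CPM was 0.171 to 0.344 in the former and 0.738 to 1.63 in the latter (LFC 2.19, standard error 0.25, FDR = 9.19e-13).

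Rgs13, a regulator of G protein signalling, rose from 0.830 ± 0.270 to 2.43 ± 0.439 RPKM (LFC 1.55, standard error 0.21, FDR = 9.47e-09). The SH2-domain adaptor genes also rose, with an LFC of 1.52 for Sh2d6 (standard error 0.21, FDR = 4.09e-09) and 1.34 for Sh2d7 (standard error 0.16, FDR = 3.50e-10). The surface receptor genes Siglecf (LFC 1.45, FDR = 1.08e-10) and Cd300lf (LFC 1.30, FDR = 1.07e-04) were also higher, and eosinophils and other myeloid cells make these as well. Kctd12, among the 3 most abundant genes of the list, was called higher too (LFC 0.63). Also called higher, and chosen for mention after their values were seen, were Spib (LFC 1.27) and Ptpn6 (LFC 0.27), which are also expressed by B cells or myeloid cells. With libraries scaled to epithelial markers, 7 of the 30 genes were higher and 2 were lower, against 2.55% and 14.0% of all tested genes, and Gnat3, Rgs13, Sh2d6, Sh2d7, Siglecf and Spib were among the 7. Cd300lf (FDR = 0.0137), Kctd12 (FDR = 0.0973) and Ptpn6 (FDR = 0.862) were not called on this scale.

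**Figure D3:**
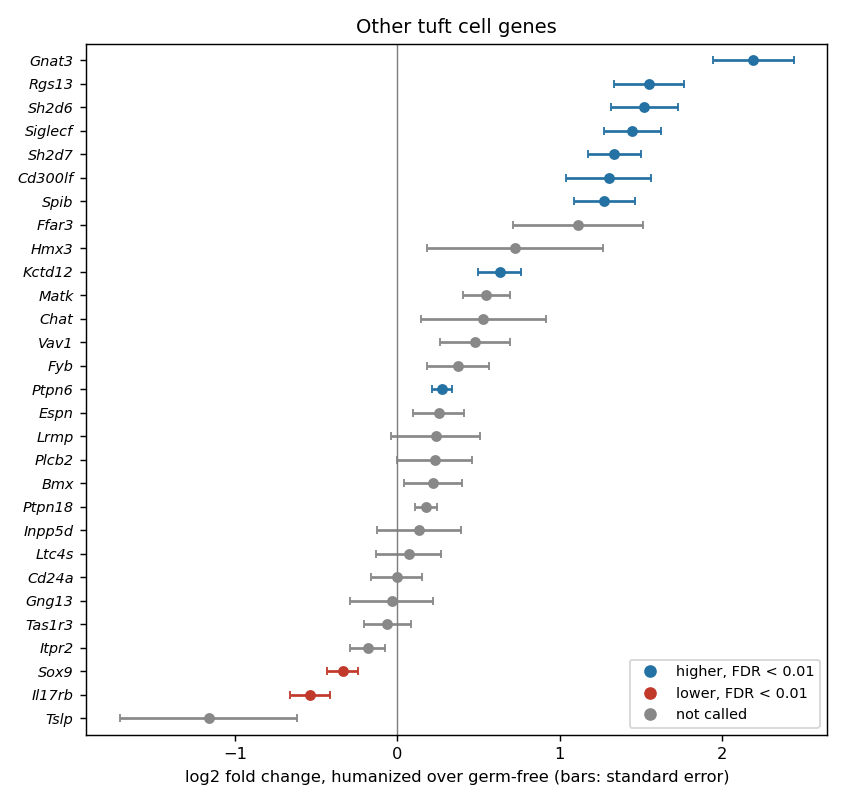
LFC of 29 tested genes of the other tuft list, humanized over germ-free, with standard errors as bars and colour giving the call of edgeR's exact test. Gnat3 is highest at 2.19, 9 genes in blue are called higher, and Il17rb and Sox9 in red are called lower.

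Il17rb, a subunit of the interleukin-25 receptor, fell from 1.32 ± 0.126 RPKM without microbes to 0.911 ± 0.0989 RPKM after humanization (LFC −0.54, standard error 0.12, FDR = 0.00544). Sox9, a transcription factor of crypt progenitors as well as tuft cells, had an LFC of −0.34 (standard error 0.09, FDR = 0.00726). Both calls were near the threshold, and leaving out 1 mouse at a time left between 0 and 2 of the genes in the list called lower. Cd24a, the most abundant gene of the list, averaged 315.8 ± 47.7 RPKM without microbes and 314.7 ± 71.4 RPKM after humanization (LFC −0.01, FDR = 0.990). Ltc4s, which makes leukotriene C4 downstream of Alox5, had 1.99 ± 0.379 and 2.08 ± 0.482 RPKM (LFC 0.07, FDR = 0.876). Il25, the cytokine that tuft cells secrete, had 0 to 6 reads per germ-free mouse and 0 to 8 reads per humanized mouse and was not tested, nor were Gnb3, Hmx2 and Rgs21, the last of which had no read in any mouse. Gnb3, a G protein β subunit, had 3 to 14 reads per germ-free mouse and 0 to 2 reads per humanized mouse, or 0.136 ± 0.0848 CPM (SD, n = 5) against 0.00898 ± 0.0220 CPM (SD, n = 6). With no filter on low counts it was called lower (LFC −3.73, FDR = 0.00128), an LFC that depends on the prior count of the fit.

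Marker genes of other cell types were compared in the same libraries, in which 9.20% of all tested genes were higher and 10.1% were lower. All 12 smooth muscle markers were called lower in humanized mice (median LFC −1.98), with a summed RPKM of 426.7 to 1196 in germ-free mice and 63.6 to 423.5 in humanized mice. Of 10 fibroblast markers, 7 were lower (summed RPKM 235 to 397.8 against 29.5 to 201.4), and of 10 enteric neuron markers, 9 were lower (10.7 to 12.9 against 1.25 to 4.89). Of 14 macrophage markers, 2 were lower and 1 was higher, with a median LFC of −0.44 and a summed RPKM of 168.6 to 205.2 against 112.1 to 309.2. No tested mast cell marker passed (6 of 10 tested, median LFC −0.53, summed RPKM 5.54 to 9.25 against 2.36 to 8.97), and Tpsab1 had 0 to 35 reads per germ-free mouse and no read in any humanized mouse (FDR = 1.94e-05 with no filter). Of 4 markers of interstitial cells of Cajal, 2 were lower, and their summed RPKM was 46.3 to 52.5 against 28.6 to 43.2. Among 10 B lineage markers, 3 were higher and none was lower (median LFC 1.24, summed RPKM 75.1 to 120.4 against 166.5 to 654.1). Among 10 erythroid and platelet markers, 8 of them tested, 1 was lower. Of the epithelial lineages, 4 of 8 goblet markers were higher (median LFC 0.50), and of 10 enteroendocrine markers 2 were higher and 2 were lower. With epithelial scaling, none of the goblet or enteroendocrine markers was called higher. Of 5 tested enteric glia markers, 4 were lower, and none of the 3 tested neutrophil markers or the 2 tested eosinophil markers passed. With no filter, the eosinophil marker Ccr3 was called lower (8 to 28 reads against 0 to 4, FDR = 2.32e-04), and the neutrophil markers S100a8 (0 reads against 0 to 8, FDR = 0.00722) and S100a9 (0 to 10 reads against 4 to 34, FDR = 0.00982) were called higher. With the quasi-likelihood test, 8 of the 12 smooth muscle calls, 5 of the 7 fibroblast calls, 7 of the 9 enteric neuron calls, 2 of the 3 B lineage calls and 1 of the 2 interstitial cell of Cajal calls remained. None of the 4 goblet calls (FDR 0.0104 to 0.0303) and neither lower macrophage call (Mrc1, FDR = 0.0172, and Cd163, FDR = 0.0219) remained with that test. The 1 higher macrophage call, Cd14, did remain (FDR = 3.07e-04). The part of these cells in the values of Hpgds, Ptgs1, Alox5ap, Dclk1, Rgs13, Siglecf, Cd300lf, Ptpn6 and Spib was not tested.

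**Figure D4:**
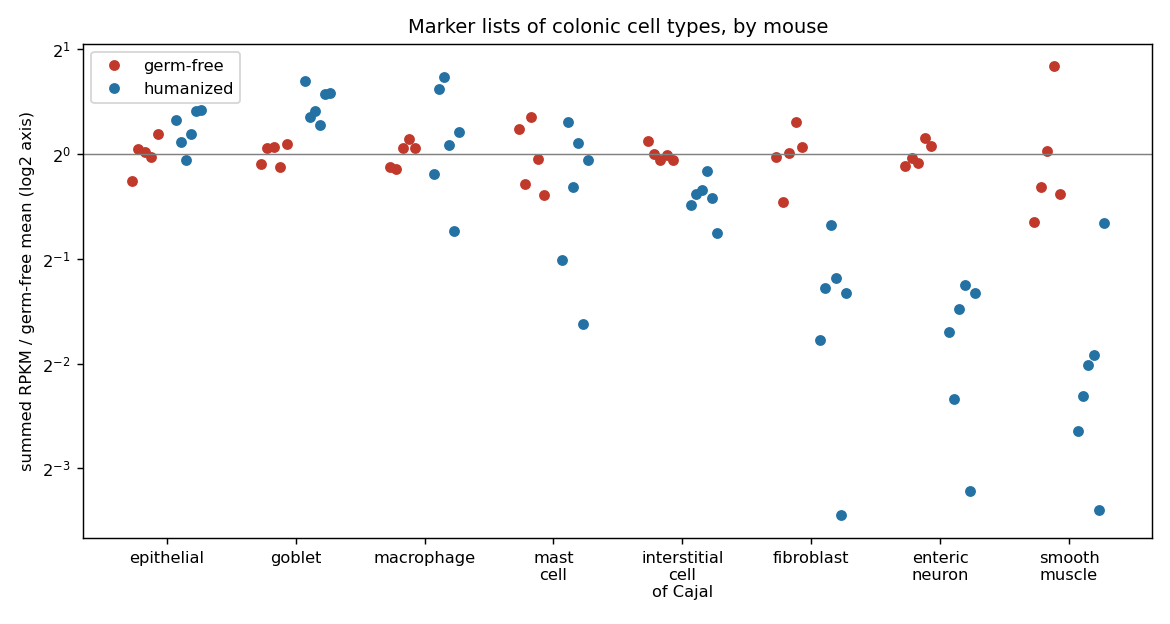
Summed RPKM of 8 marker lists in each mouse divided by the germ-free mean of the list, on a log2 axis, with germ-free mice in red and humanized mice in blue. Fibroblast, enteric neuron, smooth muscle and interstitial cell of Cajal sums are lower in humanized mice and goblet sums are higher. Epithelial, macrophage and mast cell sums overlap between the groups.

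Values of single mice were followed further as the deviation of log2 CPM from the mean of the mouse's own group, over the 11 mice. Over the 36 pairs of tested members, the correlation of these deviations had a median of 0.27 and ran from −0.27 to 0.90. It was highest between Alox5ap and Ptgs1, followed by 0.70 between Dclk1 and Ptgs1 and 0.68 between Trpm5 and Avil. With the summed level of 14 marker lists, Ptgs1 correlated at 0.95 with fibroblast, 0.87 with enteric neuron, 0.83 with macrophage and 0.80 with mast cell markers. Alox5ap correlated at 0.91 with fibroblast, 0.85 with eosinophil, 0.80 with neutrophil and 0.77 with mast cell markers, and Dclk1 at 0.65 with macrophage, 0.64 with neutrophil and 0.63 with fibroblast markers. Several lists therefore moved together with these 3 genes. Hpgds, the member called lower, correlated at 0.73 with B lineage, 0.73 with interstitial cell of Cajal, 0.58 with neutrophil, 0.47 with eosinophil, 0.43 with macrophage, 0.28 with fibroblast and 0.27 with mast cell markers, and at −0.67 with epithelial, −0.56 with goblet and −0.38 with smooth muscle markers. For the members called higher, the highest value was 0.53 for Trpm5, with enteric neuron markers, 0.38 for Pou2f3 and 0.37 for Avil, both with neutrophil markers. These correlations share libraries and normalization between their points and are given as a description.

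The 10 genes outside the members whose deviations were most like the mean of the 9 tested members, among 16062 genes with a mean CPM of at least 1, were Gm20425, Igkv1-110, Srbd1, Apod, Zmym1, Tmem64, Brms1l, Cd81, Slc7a8 and Nat14. Their Pearson correlations over 11 mice were 0.896 to 0.954. None of the 10 was on the list of other tuft genes. With Spearman's correlation 3 of the 10 remained, and with the 6 humanized mice alone none did.

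The signals that pass between tuft cells and lymphoid cells were read from a list of 18 genes of the type 2 circuit. Of 14 tested, 3 were higher and 2 were lower, where 9.20% and 10.1% of all tested genes were. Retnlb, a goblet cell product that interleukin-13 and bacteria induce, rose from 7.94 ± 1.96 to 66.2 ± 61.0 RPKM (LFC 3.06, standard error 0.53, FDR = 1.70e-07), with CPM of 3.46 to 6.74 in germ-free mice and 15.6 to 126.8 in humanized mice. Areg, an epidermal growth factor receptor ligand, had an LFC of 0.92 (standard error 0.27, FDR = 0.00858) and Il13ra1, a subunit of the interleukin-13 receptor, an LFC of 0.46 (standard error 0.09, FDR = 9.81e-05). Il33, an alarmin released by stromal and epithelial cells, fell from 2.75 ± 0.874 to 0.818 ± 0.399 RPKM (LFC −1.75, standard error 0.34, FDR = 1.60e-05), and Rora, a nuclear receptor that group 2 innate lymphoid cells need, had an LFC of −1.15 (standard error 0.23, FDR = 3.23e-05). Il33 and Rora fell together with the fibroblast sum given above, and its part in them was not tested. Stat6, which relays interleukin-13 signals and was among the most abundant genes of the list, had an LFC of −0.13 (FDR = 0.234), and was called lower with epithelial scaling (LFC −0.37, FDR = 0.00568) and with total counts (FDR = 4.56e-04). The cytokine genes Il13, Il9 and Il5 had at most 2, 1 and 9 reads in any mouse and were not tested. Il4, with 9 to 24 reads per germ-free mouse and 10 to 26 per humanized mouse, had an LFC of 0.73 (standard error 0.29, FDR = 0.0725), and 4 of 6 humanized mice were above the highest germ-free mouse. Areg and Il13ra1 were not called when libraries were scaled to epithelial markers, and Retnlb was. The Areg call also ended with the quasi-likelihood test (FDR = 0.0240), no filter (FDR = 0.0127) and total counts (FDR = 0.0317).

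Around the members, 40 further genes of the eicosanoid pathway were examined, of which 38 were tested. Of these, 6 were higher and 4 were lower, where 9.20% and 10.1% of all tested genes were, and the median LFC was −0.26 against 0.01 over all tested genes. The largest changes were in secreted phospholipases, which free fatty acids from membrane lipids. Pla2g2a, which is also antimicrobial, rose from 1.09 ± 0.602 to 68.2 ± 58.3 RPKM (LFC 5.96, standard error 0.70, FDR = 1.13e-14), with 0.368 to 1.64 CPM in germ-free mice and 16.6 to 161.1 CPM in humanized mice. Pla2g5 had an LFC of 2.06 (standard error 0.38, FDR = 7.20e-06).

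Ggt1, a γ-glutamyl transferase that acts on leukotriene C4 and glutathione, had an LFC of 1.55 (standard error 0.37, FDR = 3.74e-04), although its groups overlapped. Pparg, a nuclear receptor for fatty acids and their oxidized products, had an LFC of 0.75 (FDR = 3.26e-12), Slco2a1, a prostaglandin uptake carrier, 0.67 (FDR = 5.58e-07), and Lta4h, which makes leukotriene B4, 0.38 (FDR = 1.49e-05). The genes with lower expression were prostacyclin synthase Ptgis (LFC −1.74, FDR = 6.25e-05), the prostacyclin receptor Ptgir (LFC −1.63, FDR = 3.00e-04) and the prostaglandin E2 receptors Ptger3 (LFC −0.74, FDR = 0.00513) and Ptger4 (LFC −0.43, FDR = 0.00168). The groups overlapped for Ptger3 and Ptger4, and the Ptger3 call ended with the quasi-likelihood test (FDR = 0.0152). Ptgis and Ptgir are vascular and stromal genes, and they fell beside the fibroblast and smooth muscle sums, whose part was not tested. Hpgd, which inactivates prostaglandins and was the most abundant gene of the list, averaged 361.3 ± 27.9 RPKM without microbes and 281.8 ± 82.1 RPKM after humanization (LFC −0.36, standard error 0.16, FDR = 0.0938), and was called lower with epithelial scaling (LFC −0.63, FDR = 2.67e-04) and with total counts (FDR = 0.00138). Lta4h was not called with epithelial scaling (FDR = 0.321). Dpep1, a leukotriene D4 dipeptidase, had an LFC of −0.09 (FDR = 0.697). Leaving out 1 mouse at a time gave between 2 and 7 genes called lower, with 7 when humanized mouse 5 was left out and 2 without germ-free mouse 3, 4 or 5.

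**Figure D5:**
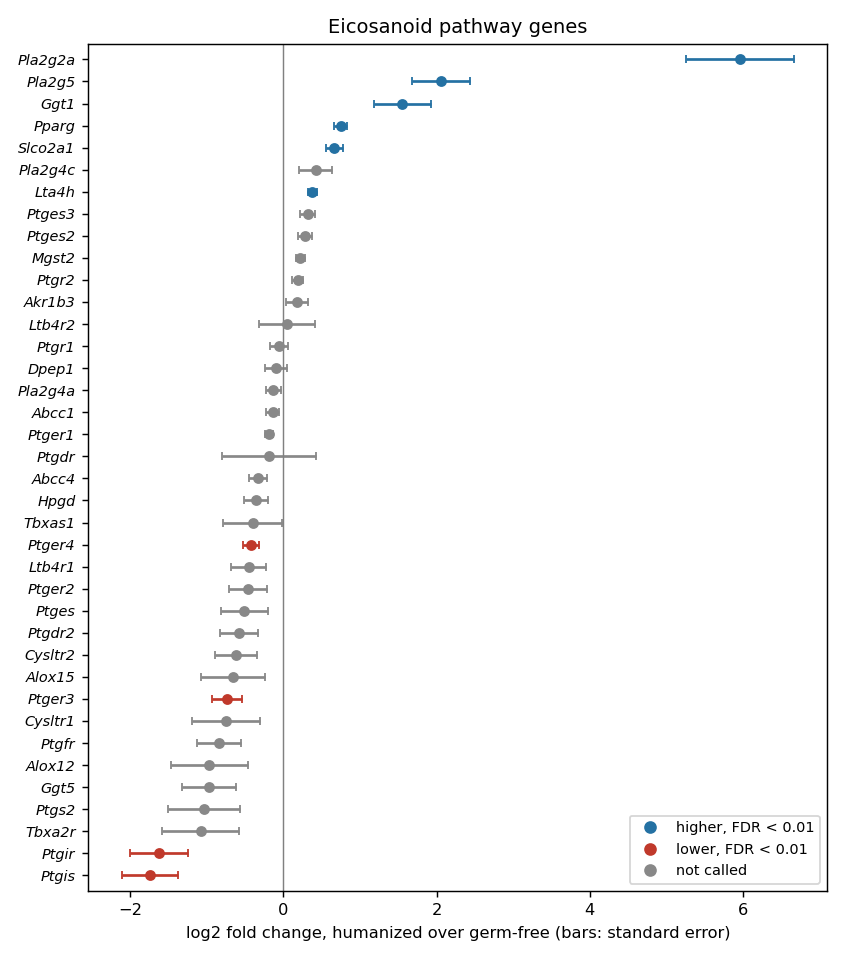
LFC of 38 tested eicosanoid pathway genes other than the members, humanized over germ-free, with standard errors as bars and colour giving the call of edgeR's exact test. Pla2g2a stands highest at 5.96, 6 genes are called higher and 4 are called lower, and most genes in grey lie below 0.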

How the data were processed

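Colonic RNA of 5 germ-free and 6 humanized mice was compared, grouped by the sample labels. The authors used, per the labels' processing notes, TopHat2 (2.1.0) with Bowtie2 (2.2.3) on mm10, counted reads per gene with featureCounts (Subread 1.4.6-p5), and deposited the counts without normalization. Whether strand was used in counting is not given in the sources used here. Low-count genes were removed by filterByExpr, run with default settings (at least 10 counts at the median library size in enough mice, a proportion of 0.7 applying to groups over 10, and 15 counts in total), leaving 19863 genes. Groups were compared with edgeR 4.0.16 (R 4.3.3), an earlier version than the study's, by the classic pipeline its methods name: TMM, dispersion estimation (here estimateDisp), the exact test, Benjamini-Hochberg correction over all tested genes, FDR below 0.01. Standard errors come from the quasi-likelihood fit. RPKM uses the deposited gene lengths, and log2 CPM a prior count of 2. Exact permutation tests of mean log2 CPM (two-sided, 10 genes, all splits of the mice) are not adjusted. With simulated counts of this comparison (19618 genes), the exact test found 74 of 100 genes changed 2-fold and 86 of 100 changed 4-fold, with 15 false calls. This is a larger share of false calls than the FDR limit of 0.01 names. The quasi-likelihood test found 63 and 82 with 4 false calls, and DESeq2 found 72 and 84 with 22.

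The members and gene lists were chosen with earlier results of these data known, and the B lineage list was added after the data were examined. Named genes are all members, up to 6 called genes per direction and the 3 most abundant of each list, and the 10 genes most like the members. Ltc4s, Spib, Ptpn6, Il25, Gnb3, Hmx2, Rgs21, Tpsab1, Mrc1, Cd163, Cd14, Ccr3, S100a8, S100a9, Il4, Il5, Il9, Il13, Tssc4, Tsfm and the genes named for a motif match fall outside this rule and were chosen after their values were seen. A gene of the other tuft list is included in its counts and is not reported here. Alternatives were the quasi-likelihood test, DESeq2 1.42.0, RLE, upper-quartile, total-count and epithelial scaling, no filter or a minimum of 10 counts per mouse, an FDR limit of 0.05, a requirement of an absolute LFC over 1, each mouse left out, and a replicate block. Each mouse is 1 library, and no batch is named. Positions are those of the count table on mm10 and of GENCODE M21 and RefSeq on GRCm38.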

Additional observations from a re-analysis of the deposited data

Results flagged for a closer look

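Ptgs1 in germ-free mice was picked out because 1 mouse lay far from the others. Germ-free mouse 4 had 32.2 CPM and the next highest germ-free mouse had 23.0 CPM, a gap that is 0.744 of the whole range of the group. This was the 1 case among 20 groups of values examined (10 genes in 2 groups), and chance alone takes about 1 of 20 groups past the limit used (Dixon's 95% critical value). Without this mouse the LFC of Ptgs1 was −0.61 (FDR = 0.179).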

How the results depend on the processing

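The number of members called higher, 3 in the main comparison, was 0 with epithelial scaling, 1 with an absolute LFC above 1 and 2 to 3 with each mouse left out. The number called lower, 1, was 0 with an absolute LFC above 1 and 1 to 2 with each mouse left out. Over all 19863 tested genes, 1827 were higher and 1999 were lower in the main comparison. These became 507 and 2787 with epithelial scaling and 405 and 1273 with an absolute LFC above 1. Of other tuft genes, 9 to 12 were called higher and 0 to 2 lower with each mouse left out, and the 2 called lower became 1 with the quasi-likelihood test, 1 with no filter and 0 with an absolute LFC above 1. The gene called with no filter was Gnb3, and neither Il17rb (FDR = 0.0154) nor Sox9 (FDR = 0.0120) was called there. With no filter, 1954 of all 30533 genes were lower. Of type 2 circuit genes, the 3 called higher became 1 with total counts, 1 with epithelial scaling and 1 with an absolute LFC above 1, and the 2 called lower became 4 with total counts. Total counts shifted all 19863 tested genes the same way, with 773 higher, 3609 lower and a median LFC of −0.18. Leaving out each mouse gave 2 to 3 called higher and 2 called lower. Of eicosanoid genes, the 6 called higher became 3 with an absolute LFC above 1 (6 to 7 with each mouse left out), and the 4 called lower became 2 with at least 10 counts in every mouse, 7 at FDR below 0.05 and 2 with an absolute LFC above 1 (2 to 7 with each mouse left out). Over all genes, 1716 of 17065 were lower with at least 10 counts in every mouse and 2905 of 19863 at FDR below 0.05. The limits on FDR and absolute LFC change the calls by construction, and the minimum of 10 counts in every mouse removed Ptgis and Ptgir, which had as few as 8 reads in a mouse. The cause of the other changes was not tested.

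With a replicate block, no member was called in either direction (0 higher, 0 lower), and 8 other tuft genes were higher and 0 lower, 1 type 2 gene was higher and 0 lower, and 3 eicosanoid genes were higher and 0 lower. Over all genes, the block lowered the calls of the quasi-likelihood test from 2699 to 506 higher and 506 lower. The numbers of the mice do not pair them, since the deviations of same-numbered mice correlated between −0.133 and 0.091 and only 1 of 5 germ-free mice correlated best with its own number.

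Across the single members, 150 of 179 alternative values kept the direction and the side of the threshold. Alox5 changed sign with upper-quartile factors (−0.024), total counts (−0.17), epithelial scaling (−0.21) and at least 10 counts in every mouse (−0.012), and ranged from −0.065 to 0.14 with each mouse left out, never near the threshold. Of the 10 genes most like the members, 3 were shared with Spearman's correlation and 0 with the humanized mice alone, where the number of mice is smaller. Gfi1b, Sucnr1, Il25, Il5, Il9 and Il13 rest on few reads, which limits the precision of their values.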
